A study of Mus musculus with 18 samples.

Results

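The proteasome subunit genes were followed across 18 RNA-seq libraries of mouse cells labelled HL-1. They were chosen by name, as the protein-coding rows of the deposited read-count table whose symbol is Psma, Psmb, Psmc, Psmd, Psme, Psmf or Psmg followed by a number. The rule gave 47 of the 29112 genes listed, and 45 of these were among the 15074 genes that passed the filter on low counts. Psma8, a core subunit known from testis, had 1 read in each of 2 libraries and none elsewhere, and Psmb9 had at most 18 reads in any library, so neither was tested. Psmb11, the beta subunit of thymic epithelium, was not among the listed genes.

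The proteasome is the protease that degrades proteins marked with ubiquitin. Its core particle is a barrel of alpha and beta rings with the proteolytic sites inside, and the regulatory particle that caps it has a base of ATPases that unfold substrates and a lid that removes ubiquitin. In cells exposed to interferon, the catalytic subunits encoded by Psmb8, Psmb9 and Psmb10 replace those of Psmb5, Psmb6 and Psmb7 to form the immunoproteasome, and Psme1 with Psme2 encodes the PA28 activator. In cardiac muscle the proteasome is known for the turnover of contractile proteins and for clearing damaged ones.

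HL-1 is an immortalised line from mouse atrial tumour cells. There were 6 groups of 3 libraries. One group was untransfected cells given vehicle, and another was untransfected cells treated with high glucose. The other 4 groups were in high glucose and were transfected with a miR-200a-3p mimic, the negative control of the mimic, a miR-200a-3p inhibitor or the negative control of the inhibitor, and were harvested 48 h after transfection. The study asked what raising or blocking miR-200a-3p, a microRNA of the miR-200 family, changes in the transcripts of these cells. The sources used here give neither the glucose dose nor whether untransfected cells saw the transfection reagent. Nothing ties the 3 libraries of a group to separate cultures, and p-values therefore reflect library-to-library spread alone, which could be technical. In bulk RNA, fewer cells of a type and less RNA per cell cannot be told apart.

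The library totals ran from 33655916 to 37928790 reads, and levels are given as CPM (read counts relative to library size, scaled by TMM) unless FPKM is named. Several defining atrial and contractile markers were near 0: Nppa, the atrial natriuretic peptide, had 2 reads in all, and Myh6 (cardiac myosin heavy chain) did not exceed 0.197 CPM and Actc1 (cardiac actin) 0.405 CPM in any library. Nkx2-5 (a cardiac transcription factor) did not exceed 2.30 CPM and Ryr2 (the calcium release channel) 0.636 CPM. Tnnt2 (15.6 to 76.2 CPM) and Gata4 (7.98 to 14.3 CPM) were present, Ttn (titin) ran from 0.0618 to 34.6 CPM, and the collagen gene Col1a2 was at 401 to 1539 CPM. The second mimic library stood apart from the other 17. There the summed level of 15 macrophage markers was 1642 CPM, against 41.6 to 79.3 CPM elsewhere, and 14 of the 15 were highest in it, Cd14 being the exception.

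The sequences that bear on the design are those of the microRNA and of the places in member transcripts where its seed could pair. miR-200a-3p is shown first, with its seed (bases 2 to 8) in capitals. It is followed by the 29-base windows of annotated 3′ untranslated region around a full match to the seed in the 4 members with one that also passed the test under the mimic, with the match in capitals.
miR-200a-3p: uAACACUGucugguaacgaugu
Psmf1, chr2:151558920-151558926, minus strand: cagacaaactgCAGTGTTtctggagaaag
Psmf1, chr2:151558136-151558142, minus strand: tgaggaactgcCAGTGTTtcccaaaacag
Psmb4, chr3:94791513-94791519, minus strand: agctggcaattCAGTGTTtattctaacat
Psmd11, chr11:80363258-80363264, plus strand: tagattagactCAGTGTTttaaccatccc
Psma3, chr12:71043171-71043177, plus strand: gaaatgaaagtCAGTGTTctcttagatca
The miRNA is from RefSeq, and coordinates of the matches are GRCm39 with the GENCODE M39 annotation. Psma2, Psme1 and Psmd5 held such a match too. In all, 7 of the 47 members (14.9%) held at least 1 full seed match, against 20.2% of the 17390 protein-coding genes listed with an annotated 3′ untranslated region. No member held a full match followed by an A. A shorter match, to bases 2 to 7 of the microRNA and followed by an A, was held by 3 members: Psme1, Psmb2 and Psme3. The median length of that region among the members was 354 bases.

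Levels per transcript length differed widely between members. In vehicle, the ATPase genes Psmc1 and Psmc3 were highest, at 362.5 ± 21.5 and 278 ± 8.33 FPKM (mean ± SD, n = 3; fragments scaled by transcript length and library size), followed by the scaffold gene Psmd2 at 228 ± 15.1 FPKM and the ubiquitin receptor gene Psmd4 at 163 ± 8.98 FPKM. The 7 tested alpha genes lay between 14.3 FPKM (Psma1) and 90.6 FPKM (Psma6), and the 7 constitutive beta genes between 14.9 FPKM (Psmb1) and 44.3 FPKM (Psmb6). The assembly chaperone gene Psmg3 was at 0.85 ± 0.10 FPKM. By deposited FPKM the genes of the core and regulatory particles were thus not at equal levels in these libraries. That measure rests on the transcript length used and on reads with a unique alignment, and their part in the differences was not tested.

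The tested immunoproteasome beta genes were well below the constitutive genes that they replace. In vehicle Psmb8 was at 0.503 ± 0.0451 FPKM and Psmb10 at 5.63 ± 0.118 FPKM, whereas Psmb5 and Psmb7 were at 40.7 ± 3.02 and 39.3 ± 3.21 FPKM. Psmb9 had 8, 10 and 3 reads in the vehicle libraries, and none in the first or in the third library of mimic control and of mimic. In those libraries a count of 0 allows up to 3 reads (0.0855 to 0.0927 CPM by library). The PA28 genes were not low: Psme1 was at 94.1 ± 2.22 and Psme2 at 45.7 ± 1.76 FPKM in vehicle.

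**Figure D1:**
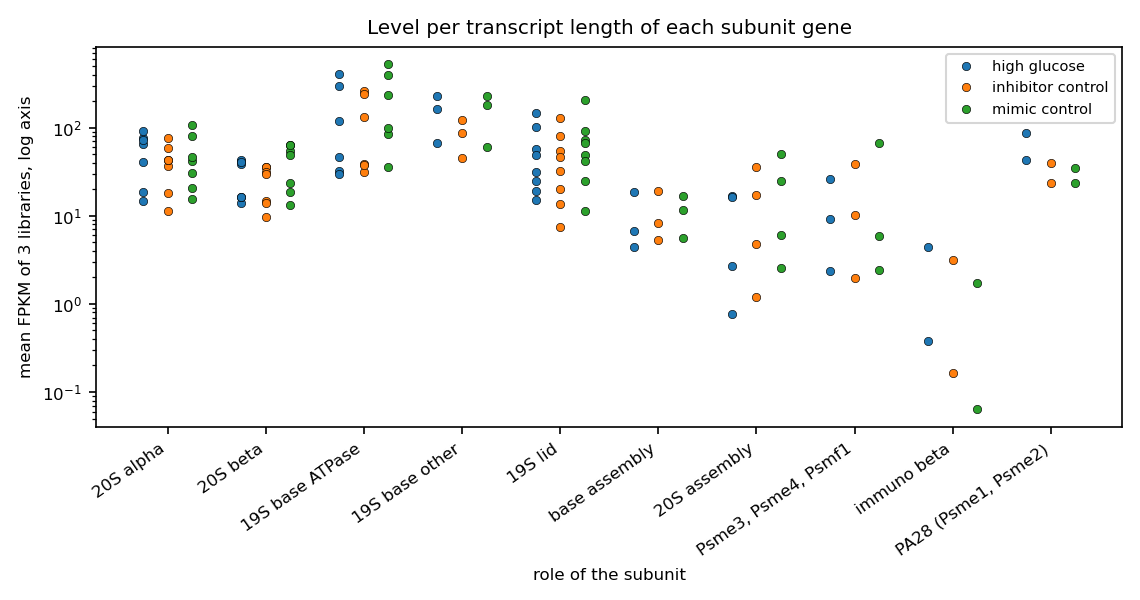
Level per transcript length of each of the 45 tested members (points, mean FPKM of 3 libraries, log axis) by role, in high glucose (blue), inhibitor control (orange) and mimic control (green). Psmb8 lies lowest in each of the 3 groups, and Psmc1 at 407, 264 and 526 FPKM lies highest.

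Summed over all members, the share of each library's reads separated the series into 3 sets. Untransfected libraries had 0.705% to 0.769%, the 6 with inhibitor or its control 0.562% to 0.581%, and the 6 with mimic or its control 0.815% to 0.895%. These ranges do not overlap. The 5 immunoproteasome and PA28 genes gave 3.77% to 4.44% of the members' reads in untransfected libraries, 2.31% to 2.66% with inhibitor or its control and 1.36% to 1.81% with mimic or its control. Most of those reads were of the PA28 genes. In the first vehicle library Psme1 and Psme2 had 7775 and 3103 reads, and Psmb8, Psmb9 and Psmb10 had 69, 8 and 346.

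**Figure D2:**
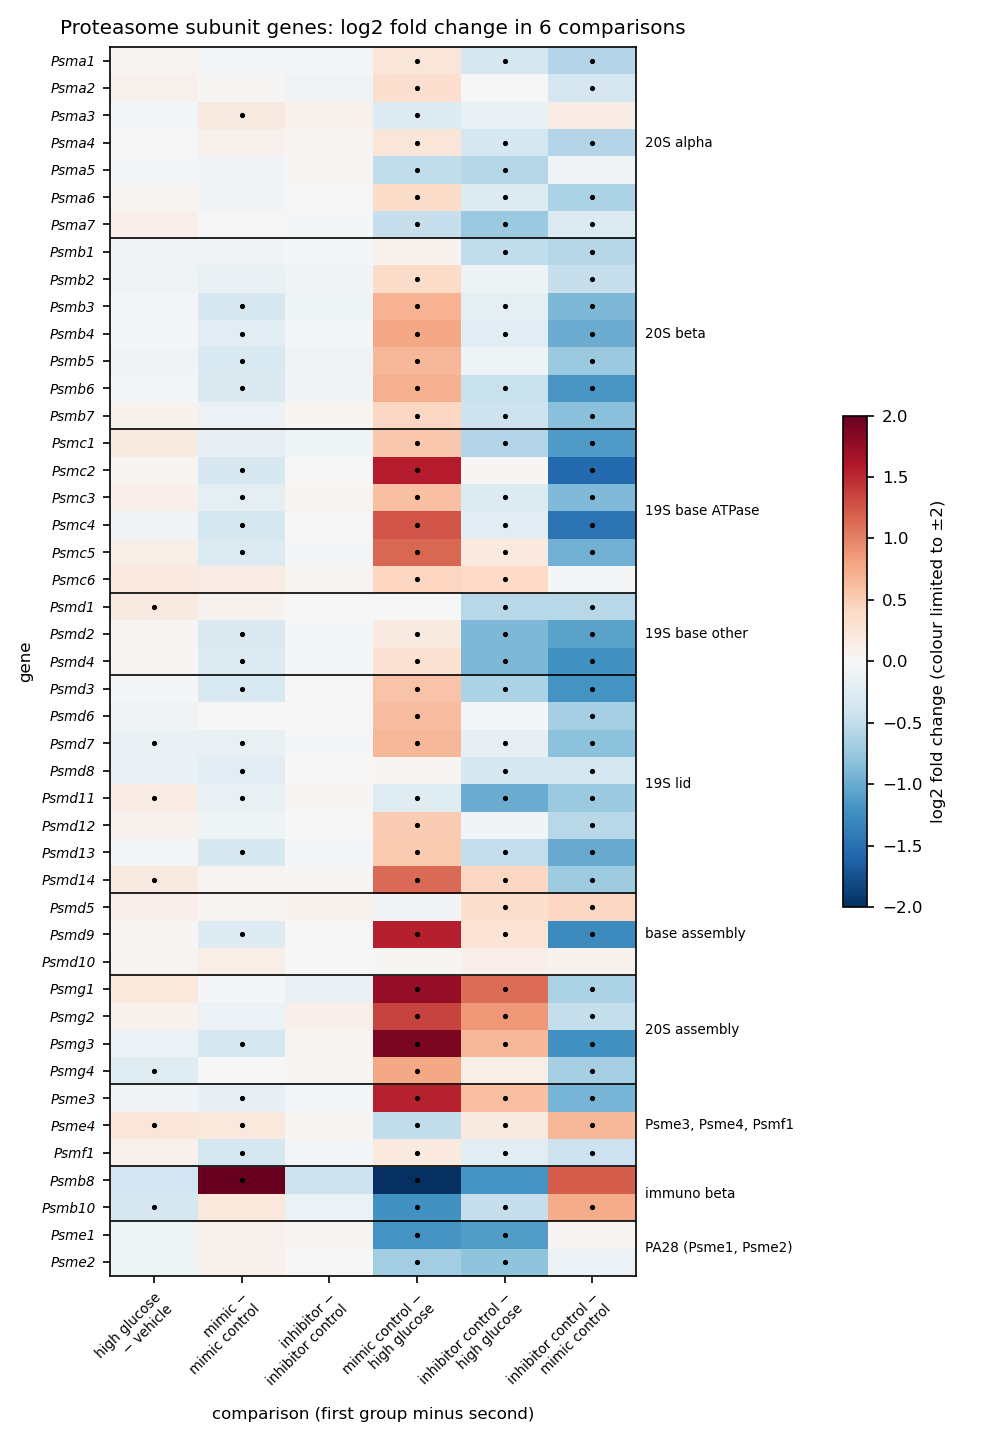
Log2 fold change (colour, limited to ±2) of each of the 45 tested members (rows, by role) in 6 comparisons (columns, first group minus second). Black dots mark an adjusted p under 0.05 in edgeR's quasi-likelihood test; the columns of the 2 negative controls against high glucose hold 40 and 35 dots, and the column of the inhibitor none.

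High glucose alone was compared with vehicle to see whether the sugar load by itself moves these genes. A minority of members passed the test, and by small amounts. Of 45 members, 4 were higher and 3 lower in high glucose (8.9% and 6.7%), against 12% and 12.2% of all genes tested that were called higher and lower. The members' median log2 fold change was 0.02, beside 0.00 for all genes.

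Among those that rose was Psmd1, a scaffold subunit of the base, at 464.9, 500.0 and 497.6 CPM in high glucose and 431.9, 438.6 and 417.8 CPM in vehicle. The groups did not overlap, and the log2 fold change was 0.18 ± 0.04 (SE; adjusted p = 0.00164). The others that rose were the lid gene Psmd11 (0.15 ± 0.04, adjusted p = 0.00958), the lid deubiquitinase gene Psmd14 (0.18 ± 0.06, adjusted p = 0.0411) and Psme4, which encodes the nuclear activator PA200 (0.24 ± 0.07, adjusted p = 0.0144). In Psmd14 and Psme4 the groups overlapped. Psmb10 fell, from 9.44, 9.33 and 9.72 CPM in vehicle to 7.72, 7.95 and 6.85 CPM, a log2 fold change of -0.34 ± 0.10 (adjusted p = 0.0205), with no overlap. Psmg4, a chaperone of core assembly, fell by 0.24 (SE 0.07, adjusted p = 0.0136), and the lid gene Psmd7 fell by 0.14 (SE 0.05, adjusted p = 0.0370).

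None of the 7 alpha, 7 constitutive beta and 6 ATPase genes passed the test. Psmb5, Psmb6 and Psmb7 had log2 fold changes of -0.05, -0.02 and 0.07, and the PA28 genes Psme1 and Psme2 both had -0.09. Psmb8 was at 1.88, 1.50 and 1.67 CPM in vehicle and 1.56, 1.24 and 1.06 CPM in high glucose, with a log2 fold change of -0.39 and an interval from -1.63 to 0.85. The fit takes the spread of a gene from all 18 libraries, so that interval also carries the second mimic library, where Psmb8 had 169 reads. These calls rested on few libraries: without the first vehicle library 2 members were higher and 0 lower, without the third vehicle library 2 and 1, and with only the 6 libraries compared in the fit 1 and 1.

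The mimic was compared with its own negative control, the test of raising miR-200a-3p. Here constitutive proteasome genes were more often lower than higher, by modest amounts. In the mimic libraries 19 of 45 members were lower and 3 higher (42.2% and 6.7%), against 18% and 15.8% of all genes tested. The members' median log2 fold change was -0.11, beside 0.00 for all genes. Without the second mimic library 16 members were lower and 2 higher, all of them also called with it, against 14.9% and 11.3% of all genes, with a members' median of -0.08. Of all genes called under the mimic 46.7% were higher, and with limma on log2(FPKM + 1) 61.3%, where 7 members were higher and 14 lower.

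Of all members the ATPase gene Psmc2 had the smallest p. It was at 482, 480 and 473 CPM in the control and 401, 368 and 383 CPM with the mimic, a log2 fold change of -0.32 ± 0.04 (adjusted p = 3.21e-05). Psmc4 was at 242, 245 and 234 CPM in the control and 195, 180 and 193 CPM with the mimic, a log2 fold change of -0.35 ± 0.05 (adjusted p = 9.69e-05). In neither gene did the groups overlap, and without the second mimic library the log2 fold changes were -0.30 and -0.32. Psmc3 and Psmc5 also fell, so that 4 of 6 ATPase genes did, or 3 of 6 without that library, where Psmc3 had -0.17 ± 0.07 (adjusted p = 0.0808), while Psmc1 and Psmc6 had -0.16 and 0.16 and did not pass.

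Of the other 3 base subunit genes Psmd2 and Psmd4 fell by 0.28 and 0.27 (SE 0.06 each), and Psmd1 had 0.07 ± 0.04 and did not pass. In the lid 5 of 8 genes fell, or 4 without the second mimic library, where Psmd7 had -0.13 ± 0.06 (adjusted p = 0.0891). Psmd13 was at 91.7, 93.8 and 94.1 CPM in the control and 81.3, 70.8 and 71.7 CPM with the mimic (log2 fold change -0.32 ± 0.06, adjusted p = 0.000321), and Psmd3 had -0.31 ± 0.05. The deubiquitinase gene Psmd14 was among the 3 lid genes that did not pass, with 0.06. The lower call of Psmd11 (-0.15 ± 0.04, adjusted p = 0.0100) was lost with no filter on low counts, without the first control library and with limma on FPKM, and reached -0.26 with a correction for GC content and length.

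In the core particle 4 of the 7 constitutive beta genes fell: Psmb3, Psmb4, Psmb5 and Psmb6. Psmb5, the gene of the chymotrypsin-like site, was at 52.9, 59.1 and 54.0 CPM in the control and 46.2, 44.2 and 43.8 CPM with the mimic (log2 fold change -0.31 ± 0.08, adjusted p = 0.00744). Psmb6, the gene of the caspase-like site, was at 131.9, 134.6 and 130.7 CPM and 115.3, 103.9 and 106.1 CPM (-0.29 ± 0.06, adjusted p = 0.00187). Both had groups that did not overlap. Psmb7, the gene of the trypsin-like site, had -0.11 and did not pass. None of the 7 tested alpha genes was lower, and Psma3 was called higher at 0.17 ± 0.06 (adjusted p = 0.0432), a call lost in 8 of the alternatives tried and turned to -0.05 with the correction for GC content and length.

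Among assembly factors and regulators, Psmf1 had a log2 fold change of -0.36 ± 0.07 (adjusted p = 0.00103). It encodes PI31, a regulator first known as a proteasome inhibitor, and was at 17.8, 15.6 and 18.9 CPM in the control and 14.2, 13.3 and 13.3 CPM with the mimic, without overlap. Of the chaperone genes Psmg3 and Psmd9 fell, by 0.35 (SE 0.11) and 0.26 (SE 0.06), and Psmg1, Psmg2, Psmg4, Psmd5 and Psmd10 did not pass. Psme3, of the nuclear PA28 gamma activator, had -0.17 ± 0.06 (adjusted p = 0.0266), and did not pass without the second mimic library (adjusted p = 0.102). Psme4 rose by 0.22 (SE 0.07, adjusted p = 0.0195), with 63.2, 64.3 and 65.3 CPM against 55.0, 54.0 and 56.7 CPM, and was at 0.05 with the correction for GC content and length (adjusted p = 0.406).

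The largest value in this comparison was that of Psmb8, and it came from 1 library. Psmb8 was at 0.371, 4.93 and 0.376 CPM in the 3 mimic libraries and 0.259, 0.191 and 0.278 CPM in the control, a log2 fold change of 2.94 ± 0.74 (adjusted p = 0.00498). The highest value is in the library with the macrophage markers, where Lyz2 (lysozyme) was at 870 CPM against 15.1 CPM in each of the other mimic libraries. Without that library the log2 fold change was 0.60 ± 0.39 (adjusted p = 0.282). Psmb9 had 18 reads in it and none in the other mimic libraries. Psmb10 (3.65, 4.52 and 3.07 CPM), Psme1 (91.3, 89.4 and 91.4 CPM) and Psme2 (51.6, 50.7 and 46.3 CPM) did not pass, with log2 fold changes of 0.21, 0.08 and 0.09.

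**Figure D3:**
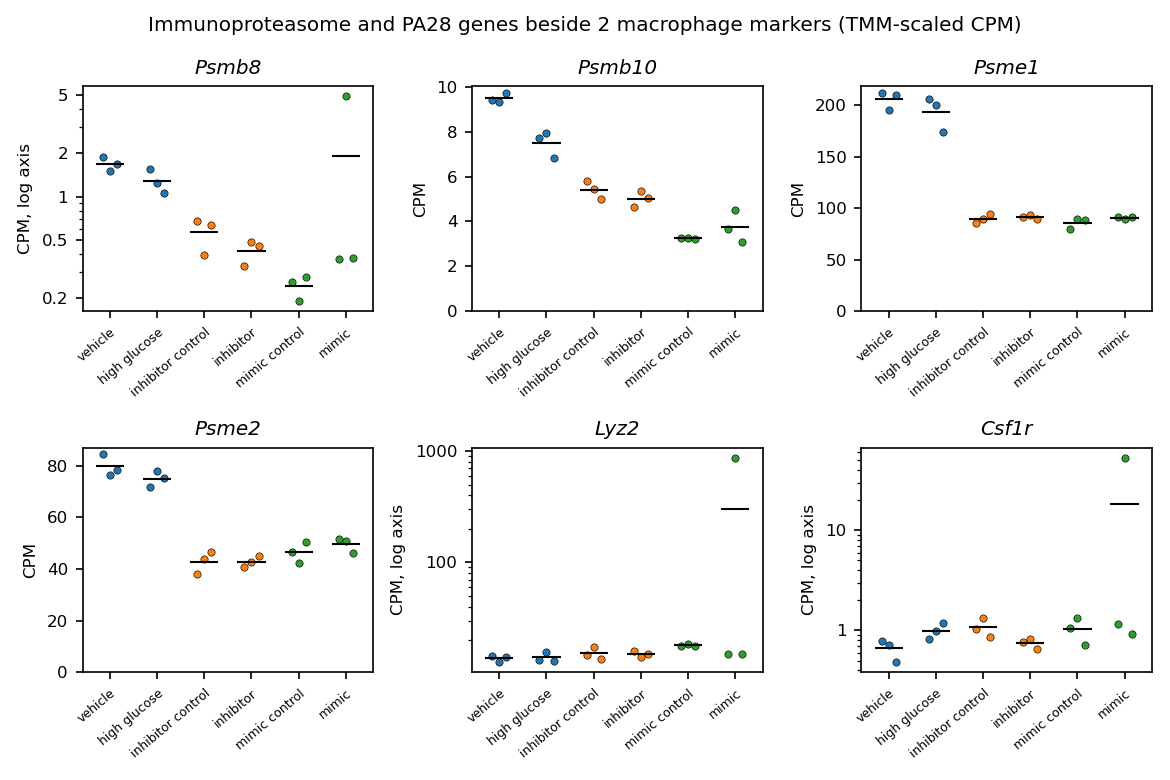
CPM in each library (points; horizontal line, mean of 3) of Psmb8, Psmb10, Psme1 and Psme2, beside the macrophage markers Lyz2 and Csf1r, in the 6 groups; Psmb8, Lyz2 and Csf1r are on log axes. Psme1 and Psme2 are lower in all 12 transfected libraries than in the 6 untransfected ones, and 1 mimic library is high in Psmb8 (4.93 CPM), Lyz2 (870 CPM) and Csf1r (53.1 CPM).

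The inhibitor was compared with its negative control, the test of blocking the microRNA. No member passed edgeR's quasi-likelihood test in either direction, and neither did any of the 15074 genes (0% higher and 0% lower). DESeq2 also called 0 members and 0 genes. At an unadjusted p under 0.05, 0 of 45 members and 447 of 15074 genes were found. The members' log2 fold changes ran from -0.42 (Psmb8) to 0.10 (Psmg2), with a median of -0.01.

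The intervals bound a difference between these libraries only, and spread between cultures may not be in them. Their width draws on the spread within all 6 groups, not only the 2 compared. For 40 of the 45 members the 95% interval of the difference lay within a 1.2-fold change either way (0.26 on the log2 scale). Psmc2 was at 163.5, 160.6 and 163.0 CPM in the control and 162.7, 165.0 and 156.9 CPM with the inhibitor, and Psmb5 at 34.7, 31.8 and 32.9 CPM and 31.4, 29.0 and 34.3 CPM. In both genes the groups overlapped. The widest interval was that of Psmb8, from -1.96 to 1.13, with 24, 14 and 22 reads in the control and 12, 18 and 16 with the inhibitor. That width also carries the mimic group, where Psmb8 had 13, 169 and 13 reads.

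Whether mimic and inhibitor differed in effect was tested directly by subtracting the inhibitor's effect from the mimic's. This difference was negative for 5 members and positive for 1 (11.1% and 2.2%), against 8.59% and 4.63% of all genes tested. The 5 were Psmc2 (-0.31 ± 0.06, adjusted p = 0.00371), Psmc4 (-0.35 ± 0.08), Psmd3 (-0.31 ± 0.07), Psmd13 (-0.30 ± 0.08) and Psmf1 (-0.34 ± 0.10, adjusted p = 0.0355). The positive call was Psmb8 (3.36 ± 1.05, adjusted p = 0.0416), which was lost in 14 of the alternatives tried, among them the fit without the second mimic library. The Psmd3 call was lost with the correction for GC content and length (-0.18), and the count of negative differences ran from 3 with limma to 14 with DESeq2. Of all genes called for this difference 35% were positive, and 47.2% with upper quartile scaling, where 4 members were negative and 1 positive.

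The negative controls were also set against untransfected cells in high glucose. These groups differ by transfection and by whatever else set them apart in handling, which cannot be told apart here, and most genes differed: 39% were called higher and 39.9% lower in the mimic control, and 40.1% and 39.3% in the inhibitor control. Both comparisons use the same 3 high glucose libraries, so their values are given side by side and not counted together.

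In the mimic control, 31 of 45 members were higher and 9 lower (68.9% and 20%), with a median log2 fold change of 0.41 beside 0.01 for all genes. In the inhibitor control, 10 were higher and 25 lower (22.2% and 55.6%), with a median of -0.22 beside 0.04 for all genes. In the mimic control 10 of 14 constitutive core genes were higher and 3 lower, and 14 of 17 regulatory particle genes were higher and 1 lower. In the inhibitor control 0 core genes were higher and 10 lower, and 3 regulatory particle genes were higher and 11 lower.

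Cell type markers were read in the same groups. Of 6 measured fibroblast and epithelial markers (Col1a1, Col1a2, Dcn, Pdgfra, Krt8 and Krt18) 5 were lower and 0 higher in the mimic control (83.3% and 0%). Of all genes 39.9% were lower and 39% higher there. In the inhibitor control 4 were lower and 0 higher (66.7% and 0%), against 39.3% and 40.1% of all genes. Lum, Epcam and Cdh1 were too low to test. The summed level of the list was 1926 to 2290 CPM in high glucose, 568 to 578 CPM in the mimic control and 848 to 887 CPM in the inhibitor control. That sum was mostly Col1a1 and Col1a2, with 20241 and 48293 reads in the first high glucose library. Krt8 had 25 reads there and Krt18 had 8. Of 5 measured cardiomyocyte markers 2 were higher and 2 lower in the mimic control (40% each), near the shares of all genes. In the inhibitor control 2 were higher and 1 lower (40% and 20%). The sum of that list was 57.8 to 68.8, 31.7 to 33.1 and 94.4 to 116.5 CPM in the same order. Ttn had 257, 301 and 393 reads in high glucose, 5, 4 and 2 in the mimic control and 1086, 974 and 891 in the inhibitor control. Of 14 measured macrophage markers 1 was higher and 1 lower in the mimic control (7.1% each). For the inhibitor control 0 were higher and 1 lower (0% and 7.1%). The part of these marker differences in the results on the members was not tested.

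**Figure D4:**
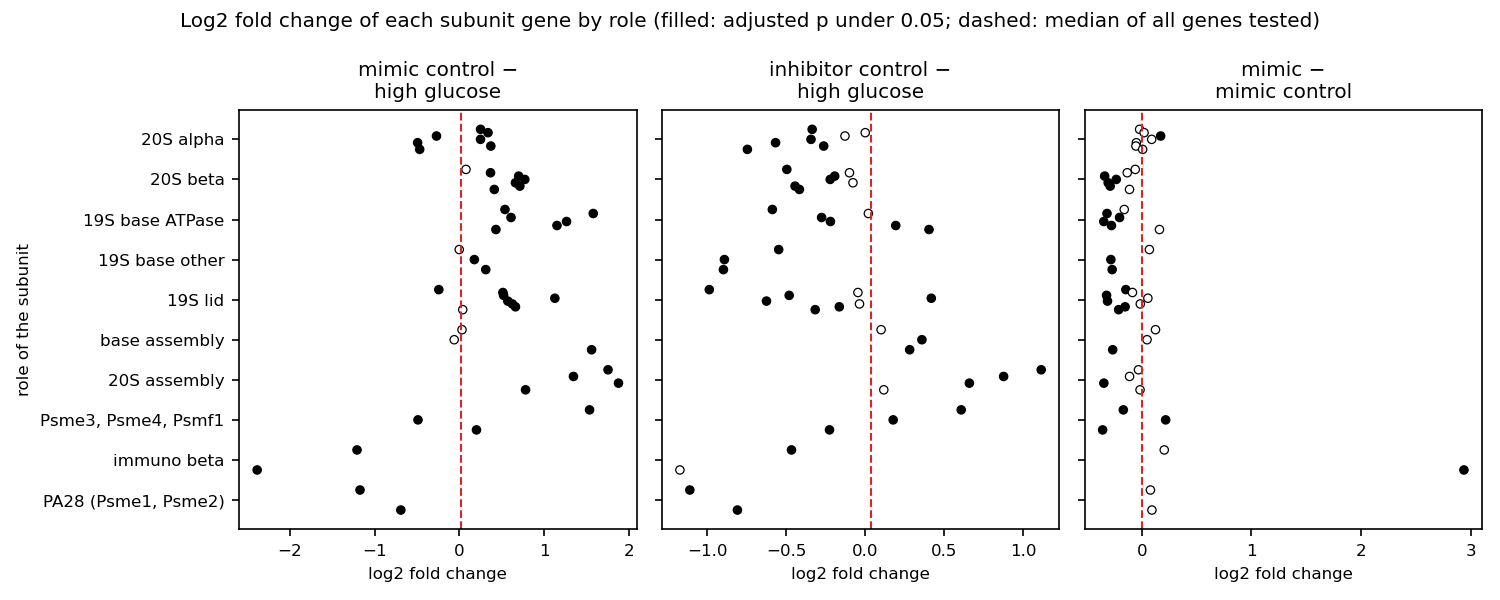
Log2 fold change of each tested member (points) by role in the mimic control against high glucose, the inhibitor control against high glucose and the mimic against its control; filled points have an adjusted p under 0.05, and the dashed line is the median of all genes tested. The horizontal scales differ between panels, and the immunoproteasome and PA28 points lie left of the line in the first panel and the second.

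All 6 ATPase genes were higher in the mimic control. Psmc2 was at 162.8, 160.4 and 157.6 CPM in high glucose, 482, 480 and 473 CPM in the mimic control (log2 fold change 1.58 ± 0.04, adjusted p = 1.76e-17) and 163.5, 160.6 and 163.0 CPM in the inhibitor control (0.02 ± 0.04). The mimic control libraries were nearly 3-fold above the others, and the inhibitor control did not pass the test against high glucose. Psmc4 and Psmc5 were also more than 1 log2 unit higher in the mimic control (1.26 ± 0.05 and 1.15 ± 0.06), with -0.22 ± 0.05 and 0.19 ± 0.06 in the inhibitor control. Psmc1, the highest member by FPKM, had 0.54 ± 0.08 in the mimic control and -0.59 ± 0.08 in the inhibitor control. Psmc6 was higher in both as well, by 0.43 and 0.40.

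Of the base subunits without ATPase activity, all 3 were lower in the inhibitor control. Psmd2 was at 977, 905 and 889 CPM in high glucose, 532, 478 and 483 CPM in the inhibitor control (-0.89 ± 0.06) and 1038, 1056 and 1037 CPM in the mimic control (0.18 ± 0.06, adjusted p = 0.0143). Psmd4, the ubiquitin receptor, had -0.90 ± 0.06 and 0.31 ± 0.06, and Psmd1 had -0.55 ± 0.04 in the inhibitor control and 0.00 in the mimic control, where it did not pass. In the lid 6 of 8 genes were higher and 1 lower in the mimic control, and 1 higher and 5 lower in the inhibitor control. Psmd11 was lower in both, at 96.8, 93.5 and 95.7 CPM in high glucose, 84.1, 77.3 and 80.1 CPM in the mimic control (-0.24 ± 0.04) and 47.9, 49.7 and 46.6 CPM in the inhibitor control (-0.99 ± 0.04). Psmd14 was higher in both (1.13 ± 0.06 and 0.42 ± 0.06), but the correction for GC content and length turned its value in the inhibitor control to -0.78 (adjusted p = 6.37e-11).

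**Figure D5:**
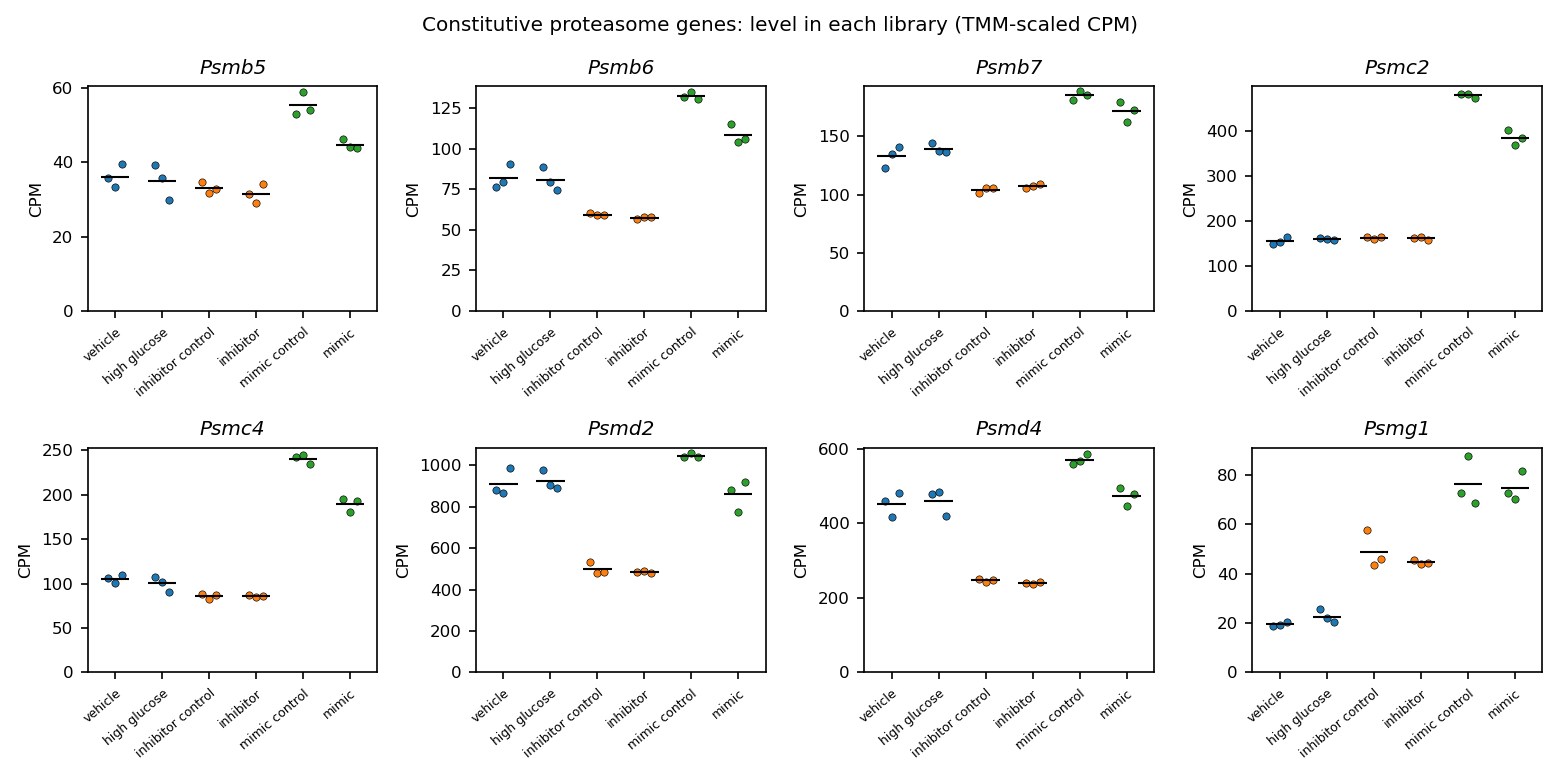
CPM in each library (points; horizontal line, mean of 3) of 8 constitutive members in the 6 groups, on linear axes from 0. The mimic control is highest or near highest in each panel, Psmc2 rises from about 160 CPM to 473 to 482 CPM there, and Psmd2 and Psmd4 are lowest in the inhibitor pair.

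The genes of the catalytic beta subunits were higher in the mimic control, and 2 of the 3 were lower in the inhibitor control. Psmb5 was at 39.3, 35.8 and 30.0 CPM in high glucose, 52.9, 59.1 and 54.0 CPM in the mimic control (log2 fold change 0.66 ± 0.08, adjusted p = 3.61e-07) and 34.7, 31.8 and 32.9 CPM in the inhibitor control (-0.08 ± 0.08, adjusted p = 0.396), where it passed only without the third high glucose library among the alternatives tried. Psmb6 had 0.71 ± 0.06 in the mimic control and -0.45 ± 0.06 in the inhibitor control, and Psmb7 had 0.41 ± 0.05 and -0.42 ± 0.05. Psmb4, a structural beta subunit, had the largest rise of the 7 beta genes in the mimic control, 0.77 ± 0.06. The alpha genes did not move as one. In the mimic control Psma1, Psma2, Psma4 and Psma6 rose (0.25 to 0.37), and Psma3, Psma5 and Psma7 fell (-0.27, -0.49 and -0.47). In the inhibitor control 5 of the 7 fell, with Psma7 at -0.75 ± 0.06, and Psma2 and Psma3 did not pass.

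Promoter sequence is shown for Psmb5 and Psmb6, catalytic genes whose promoters hold the core of the antioxidant response element, TGACNNNGC, close to the start. This element is known as the site bound by Nfe2l1 and Nfe2l2 with small MAF proteins in proteasome gene promoters. The 150 bases before the RefSeq start are given on the gene's strand, with the matched letters in capitals.
Psmb5, GRCm38.p6, chr14:54617996-54618145, minus strand: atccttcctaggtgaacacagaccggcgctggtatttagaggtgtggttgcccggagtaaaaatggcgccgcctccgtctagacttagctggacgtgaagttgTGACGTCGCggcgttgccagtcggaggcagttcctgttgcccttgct
Psmb6, GRCm38.p6, chr11:70525207-70525356, plus strand: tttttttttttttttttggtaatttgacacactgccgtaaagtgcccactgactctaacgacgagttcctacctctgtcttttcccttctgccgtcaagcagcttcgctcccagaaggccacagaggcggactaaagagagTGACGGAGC
Of the 47 members 39 matched the RefSeq promoter table, which covers 250 bases before to 50 after the start. On either strand 6 of 39 (15.4%) held TGACNNNGC, against 14.0% of 27025 genes: Psmb5, Psmb6, Psmc6, Psmd9, Psmd12 and Psme4. CCAAT was found in 13 of 39 (33.3%, against 41.1%). GAAANNGAAA, the core of the interferon stimulated response element, was found in 5 of 39 (12.8%, against 3.99%): Psmb3, Psmd4, Psmd9, Psmg4 and Psme1. A match is a description of letters, and no binding was measured.

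The immunoproteasome and PA28 genes went the other way from the constitutive genes in the mimic control. All 4 tested fell there, and 3 of 4 fell in the inhibitor control. Psme1 was at 206, 200 and 174 CPM in high glucose, 80.03, 89.6 and 88.1 CPM in the mimic control (log2 fold change -1.17 ± 0.06, adjusted p = 2.99e-13) and 85.1, 89.1 and 94.5 CPM in the inhibitor control (-1.11 ± 0.06, adjusted p = 8.89e-13). Psme2, its partner in the ring, was at 71.8, 77.9 and 75.1 CPM, 46.4, 42.2 and 50.6 CPM (-0.69 ± 0.07) and 37.9, 43.9 and 46.4 CPM (-0.81 ± 0.07). For both genes the transfected controls lay wholly below high glucose and overlapped each other.

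Psmb10 was at 7.72, 7.95 and 6.85 CPM in high glucose, 5.82, 5.44 and 5.00 CPM in the inhibitor control (-0.47 ± 0.11, adjusted p = 0.000500) and 3.25, 3.27 and 3.21 CPM in the mimic control (-1.21 ± 0.11, adjusted p = 4.43e-09). The 3 groups did not overlap. With the correction for GC content and length the value in the inhibitor control was -0.21 and did not pass (adjusted p = 0.0685). Psmb8 was at 1.56, 1.24 and 1.06 CPM in high glucose, 0.259, 0.191 and 0.278 CPM in the mimic control (-2.38 ± 0.75, adjusted p = 0.00709) and 0.675, 0.393 and 0.636 CPM in the inhibitor control (-1.17 ± 0.66, adjusted p = 0.109). The call in the mimic control was lost with limma on log2(FPKM + 1). The inhibitor control passed without the second mimic library (-1.17, adjusted p = 2.63e-05), with no filter on low counts and with only the groups compared in the fit.

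Per transcript length, the share of the immunoproteasome gene in each exchangeable pair was lowest in the mimic control among the groups given here. Psmb10 gave 12.6% ± 0.705 (SD, n = 3) of the FPKM of Psmb10 and Psmb7 together in vehicle, 9.75% ± 0.633 in high glucose, 9.46% ± 0.867 in the inhibitor control and 3.40% ± 0.0654 in the mimic control. Psmb8 gave 1.23% ± 0.128 of Psmb8 and Psmb5 in vehicle, 0.958% ± 0.0692 in high glucose, 0.447% ± 0.115 in the inhibitor control and 0.116% ± 0.0263 in the mimic control. In the mimic libraries this last share was 0.208%, 2.88% and 0.221%, the middle value again being that of the second library.

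The assembly chaperone genes were among the largest rises in both controls. Psmg1 was at 25.6, 21.9 and 20.3 CPM in high glucose, 72.7, 87.6 and 68.5 CPM in the mimic control (1.75 ± 0.11) and 57.5, 43.5 and 45.7 CPM in the inhibitor control (1.11 ± 0.11, adjusted p = 6.41e-09). Psmg3 was at 2.58, 2.25 and 1.87 CPM, 7.68, 8.36 and 8.56 CPM (1.88 ± 0.12) and 3.60, 3.67 and 3.29 CPM (0.66 ± 0.12). All 4 core chaperone genes rose in the mimic control, and 3 of 4 in the inhibitor control, where Psmg4 had 0.12 and did not pass. Of the chaperones of the base, Psmd9 rose in both (1.56 ± 0.06 and 0.28 ± 0.06), Psmd5 had -0.06 ± 0.09 in the mimic control, where it did not pass, and rose in the inhibitor control (0.36 ± 0.09), and Psmd10 passed in neither.

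Psme3, Psme4 and Psmf1 did not move in 1 direction. Psme3 was at 77.8, 77.8 and 72.3 CPM in high glucose, 223, 221 and 216 CPM in the mimic control (1.53 ± 0.06, adjusted p = 1.95e-15) and 122, 109 and 116 CPM in the inhibitor control (0.61 ± 0.06). Psme4 fell in the mimic control (-0.49 ± 0.07) and had 0.18 ± 0.07 in the inhibitor control (adjusted p = 0.0223), a value that became -0.18 with the correction for GC content and length (adjusted p = 0.000496). The second call was also lost with limma on FPKM and without any 1 of 4 libraries, the first or second of high glucose (0.09 and 0.16) and the second or the third of the inhibitor control (0.16 and 0.15). Psmf1 had 0.20 ± 0.07 and -0.23 ± 0.07 (adjusted p = 0.0150 and 0.00760), the first of which was lost with limma on FPKM and without the third library of high glucose (0.17) or of the mimic control (0.15), and the second with upper quartile scaling (-0.15).

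The 2 negative controls were then compared directly, inhibitor control minus mimic control. In the inhibitor control 35 of 45 members were lower and 3 higher (77.8% and 6.67%), against 35.7% and 38.5% of all genes, with a median log2 fold change of -0.64 beside 0.04. All 7 constitutive beta and all 8 lid genes were lower, 5 of 6 ATPase genes and 5 of 7 alpha genes. The largest falls were Psmc2 (-1.56 ± 0.04), Psmc4 (-1.48 ± 0.06), Psmd9 (-1.28 ± 0.06), Psmg3 (-1.22 ± 0.11) and Psmd4 (-1.21 ± 0.06). Psmb10 (0.74 ± 0.11), Psme4 (0.66 ± 0.07) and Psmd5 (0.42 ± 0.09) were higher, and Psme1 (0.06 ± 0.06) and Psme2 (-0.12 ± 0.07) did not pass. Both controls are labelled as negative controls in high glucose, and the labels give no date or batch that could separate a control sequence from its handling.

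Genes that work beside the members were read from lists chosen by function. Of 15 measured partner genes 11 were higher and 4 lower in the mimic control against high glucose (73.3% and 26.7%, beside 39% and 39.9% of all genes), and 8 and 4 in the inhibitor control (53.3% and 26.7%, beside 40.1% and 39.3%). Pomp, the chaperone that matures the core, had 0.73 ± 0.05 in the mimic control and -0.08 ± 0.05 in the inhibitor control, where it did not pass. Adrm1, a ubiquitin receptor, had 1.01 ± 0.05 and -0.53 ± 0.05. Zfand2a, a stress-induced gene whose product binds the proteasome, had 2.75 ± 0.07 and 1.89 ± 0.07.

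Nfe2l1 and Nfe2l2 encode transcription factors known to drive proteasome genes. Nfe2l1 fell in both controls (-0.40 ± 0.06 in the mimic control and -0.59 ± 0.06 in the inhibitor control), as did Nfe2l2 (-1.19 ± 0.04 and -1.34 ± 0.04), while the small MAF gene Mafk rose (2.38 ± 0.05 and 1.48 ± 0.05). Among 11 interferon and antigen presentation genes 5 were lower and 0 higher in high glucose against vehicle (45.5% lower, beside 12.2% of all genes), namely Irf9 (-0.58 ± 0.06), Nlrc5, Tapbp, Ifngr2 and Erap1. Against high glucose 7 were lower and 3 higher in the mimic control (63.6% and 27.3%, beside 39.9% and 39% of all genes), and 8 lower and 3 higher in the inhibitor control (72.7% and 27.3%, beside 39.3% and 40.1%). In the same order of controls Irf1, an activator of immunoproteasome genes, had -2.31 ± 0.07 and -1.46 ± 0.07, and Tap1, a peptide transporter, had -2.94 ± 0.24 and -2.30 ± 0.23. Across the 11 genes values ran from -3.63 (Tapbp) to 2.36 (Nlrc5) in the mimic control. For the inhibitor control they ran from -3.44 to 1.70, with the same genes at the ends. Under the mimic 1 of these 11 was higher and 1 lower (9.09% each, beside 15.8% and 18% of all genes), and under the inhibitor none passed.

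The members with a full seed match gave both directions under the mimic. Psmf1 with its pair of matches, Psmb4 and Psmd11 fell (-0.36, -0.23 and -0.15), and Psma3 was called higher (0.17, or -0.05 with the correction for GC content and length). Psma2, Psme1 and Psmd5 had 0.02, 0.08 and 0.05 and did not pass. Psma2 had -0.22 with the correction for GC content and length. In the inhibitor comparison the values of these 7 genes ran from -0.08 (Psma2) to 0.08 (Psma3), and none passed. Psme3 and Psmb2 held only the shorter match followed by an A. Under the mimic Psme3 had -0.17 and was called lower, though not without the second mimic library, and Psmb2 had -0.13 and did not pass.

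The counts of some members may hold reads of other genes or lack their own. In the GENCODE M39 annotation 22 of the 47 members overlap the exons of a gene on the opposite strand, and whether counting used strand is not stated in the labels. The overlap covers 46.8% of the exon length of Psmb7 (with Nek6), 39.6% of Psme1 (with Emc9), 39.5% of Psmc5 (with Smarcd2) and 30.8% of Psme2 (with Rnf31). In addition 9 members have near-identical copies elsewhere in the genome (at least 150 bases at 97% identity), over 96.5% of the transcript of Psmb3, 82.4% of Psme2, 74.8% of Psmb5 and 70.3% of Psma5. Per the labels' protocols the counts hold reads with a unique alignment, so reads that fit such a copy equally well would not be in these counts.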

How the data were processed

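RNA of 18 libraries was sequenced as paired reads after a stranded preparation, per the labels' protocols. The authors trimmed reads with FASTX-Toolkit 0.0.13, aligned them to GRCm39 with HISAT2 and deposited read counts and FPKM per gene from uniquely mapped reads, per the labels' protocols. The submitters' processing notes also name DESeq2, with no role. For the counting, the annotation release and strand setting are not given in the sources used here.

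Counts were tested with edgeR 4.0.16 (R 4.3.3): filterByExpr (minimum count 10, minimum total 15), TMM scaling, 1 term per group over all 18 libraries, the quasi-likelihood test, and Benjamini-Hochberg adjustment over 15074 genes. "Called", "passed", "rose" and "fell" mean an adjusted p under 0.05, and ± after a log2 fold change is its SE. Levels between genes were read from the deposited FPKM. The script was tested on simulated data. Totals of 33655916 to 37928790 reads set the counting precision.

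Alternatives were DESeq2 1.42.0, limma 3.58.1 on log2 of the deposited FPKM plus 1 or 0.1, 2 other scalings, no filter, only the compared groups, a correction for GC content and length, a replicate block, and each library left out. Near-identical copies were sought with blastn 2.17.0. The members and lists were chosen with earlier results of these data known. Named genes are the called members with the largest changes and no overlap between groups (up to 5 each way). The immunoproteasome, catalytic and activator genes, those with a full seed match, and up to 2 per other list are named too. Others, such as Psmc1 and Psma7, were named after their values were seen, as were Psmd1 and Psmd14 in comparisons where the rule did not pick them. Genes with a like pattern are not given, since the libraries fall into 3 separate sets, so that no pooled correlation was given.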

Additional observations from a re-analysis of the deposited data

How the results depend on the processing

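Counts of called members kept their direction in most alternatives. Those that moved by over 1.5 times were 1 to 5 members in the main fit, and 1 of them reached 14. In high glucose minus vehicle (4 higher, 3 lower), 1 was higher and 1 lower with only the compared groups in the fit, and 1 lower with no filter on low counts. For the mimic minus its control (3 higher), 1 was higher with DESeq2, 7 with limma at either pseudocount, 5 with no filter and 5 with upper quartile scaling. For the inhibitor control minus the mimic control (3 higher), 5 were higher with only the compared groups and 6 with limma and with upper quartile scaling, which put the median of all genes at 0.15 rather than 0.04. For the mimic effect minus the inhibitor effect (1 positive, 5 negative), 0 were positive with DESeq2, limma and the replicate block, and 13 were negative with only the compared groups, 14 with DESeq2, 3 with limma and 11 with no filter. DESeq2 gave an adjusted p to 44 of the 45 members, both for this difference and under the mimic, so a call may be absent there for want of a test. Over all genes the inhibitor gave 0 calls, 13 higher and 13 lower with no filter, and 0 higher and 1 lower with only the compared groups. The cause was not tested.

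Leaving out 1 library at a time gave 2 to 5 higher and 0 to 4 lower for high glucose, 1 to 2 higher and 15 to 21 lower for the mimic, 0 for the inhibitor, and 0 to 1 positive and 4 to 10 negative for the difference of effects. It gave 29 to 31 higher and 9 lower for the mimic control, 9 to 10 higher and 24 to 27 lower for the inhibitor control, and 3 to 4 higher and 35 to 36 lower between the controls. The correction for GC content and length reversed 6 values: in the mimic Psma2 (-0.22) and Psma3 (-0.050), in the inhibitor control against high glucose Psmd14 (-0.78) and Psme4 (-0.18), and between the controls Psma3 (-0.43) and Nfe2l1 (0.0066).

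Correlations of same-numbered libraries, taken as deviations from group means of 3, ran from -0.45 to 0.23. No comparison had all 3 above 0.1. So few libraries cannot settle whether equal replicate numbers mark pairs, and the main fit used no pairing. With the replicate block 3 members were higher and 3 lower in high glucose, 2 and 19 with the mimic, 31 and 9 in the mimic control, 10 and 25 in the inhibitor control, 3 and 35 between the controls, 0 and 0 with the inhibitor, and 0 and 5 in the difference of effects. Depth limits Psmb8 and Psmb9, the immunoproteasome genes with the fewest reads. For Psmb8 the second mimic library also adds to the spread. Under the mimic the SE of the Psmb8 log2 fold change was 0.74, and 0.39 without that library.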
